A study of Homo sapiens with 12 samples.

Results

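Iron enters an erythroid cell through the transferrin receptor, is stored in ferritin shells and is handed to mitochondria for heme and iron-sulfur cluster synthesis. A set of 8 messenger RNAs for these steps was followed, namely TFRC and SLC11A2 for uptake, FTH1, FTL and NCOA4 for storage, IREB2 and ACO1 for control, and SLC25A37 for mitochondrial import. They were taken by name, 8 of the 61782 gene rows deposited, and each was found in exactly 1 row that carried no other gene name. The samples are RNA immunoprecipitates from K562, a human erythroleukemia cell line, which per the study carried an inducible C/EBPα-ER fusion. Cells that had received pLV-miR-143, a lentiviral vector for the microRNA, or pLV-control, were selected with puromycin, and their lysates were precipitated with an antibody to Argonaute 2 (AGO), the protein that holds microRNAs on their targets, or with unspecific IgG as a mock. This gave 12 samples in 4 groups of 3, here called control_IgG, control_AGO, miR143_IgG and miR143_AGO.

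All values are the authors' averages of a group in FPKM, fragments scaled to transcript length and library size. Each gene has 1 value a group and replicates were not analysed one by one here, so no spread is known and none of the differences given below was tested. Ratios are log2 ratios of FPKM + 1, which understate differences between low values, and a gene was counted as differing at 2-fold and at 10-fold, the latter being the threshold of the study. As a check of the labels, the MIR143 row was listed at 0 in both control groups and at 44781 and 118393 FPKM in miR143_IgG and miR143_AGO. Of the erythroid markers, GATA1 was at 52.03 to 73.2 FPKM in the 4 groups and KLF1 at 41.9 to 289 FPKM, and the other 6 markers examined, which stand in 4 rows since HBG1, HBG2 and HBE1 share 1 joined row, were above 0 throughout. The 4 markers of other blood cells examined, CD3E, MS4A1, CD14 and MPO, were listed at 0 in every group. Numbers of fragments are unknown. The low edge, the 10th lowest product of FPKM and transcript length in a group, was 13.5 times as high in control_IgG as in miR143_AGO, 1.64 times in miR143_IgG and 1.09 times in control_AGO, so that control_IgG resolves low genes least. The 5 comparisons share groups and are not independent of each other. In such bulk material, fewer cells that express a gene and less of its RNA per cell cannot be told apart.

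As background, cells balance iron through the iron-responsive element (IRE), a hairpin with a bulged C, a stem of 5 base pairs and a loop of 6 bases. When iron is scarce the iron regulatory proteins IRP1 (encoded by ACO1) and IRP2 (encoded by IREB2) bind it. Bound to the 5′ UTR of the ferritin mRNAs they block translation, and bound to the 3′ UTR of TFRC they protect the mRNA from decay. The element was searched in the longest coding transcript of each gene (GENCODE 29, GRCh38) on the sense strand as a C, 5 bases, the loop CAGTGN and 5 bases, with the bases on either side of the loop able to pair (GT pairs allowed). The matches are shown because they set the genes apart by position. Loop bases are in capitals, and the sequences read 5′ to 3′ as DNA.
FTH1, 5′ UTR, chr11:61967574-61967603, minus strand: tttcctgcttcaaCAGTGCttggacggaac
FTL, 5′ UTR, chr19:48965334-48965363, plus strand: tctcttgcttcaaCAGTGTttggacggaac
TFRC, 3′ UTR, chr3:196050979-196051008, minus strand: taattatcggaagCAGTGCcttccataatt
TFRC, 3′ UTR, chr3:196050575-196050604, minus strand: acattatcgggagCAGTGTcttccataatg
TFRC, 3′ UTR, chr3:196050510-196050539, minus strand: tctgtatcggagaCAGTGAtctccatatgt
TFRC, 3′ UTR, chr3:196050463-196050492, minus strand: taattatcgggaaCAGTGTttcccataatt
SLC40A1, 5′ UTR, chr2:189580661-189580690, minus strand: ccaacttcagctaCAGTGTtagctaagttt
SLC11A2, 3′ UTR, chr12:50988269-50988298, minus strand: tagccatcagagcCAGTGTgtttctatggt
SLC40A1 encodes the iron exporter and is shown for the comparison of genes by the place of the IRE. The elements of FTH1 and FTL have the same stem, 5 bases on each side of the loop. The SLC11A2 match holds 1 position that does not pair. A full match in the 5′ UTR was found in 0.12% of 18308 coding genes and one in the 3′ UTR in 0.627% of 18965. With 1 mispair allowed, as in SLC11A2, the 3′ UTR share was 4.21%, and IREB2 and ACO1 had a match of this loose kind too. No match was found in the UTRs of NCOA4 and SLC25A37.

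**Figure D1:**
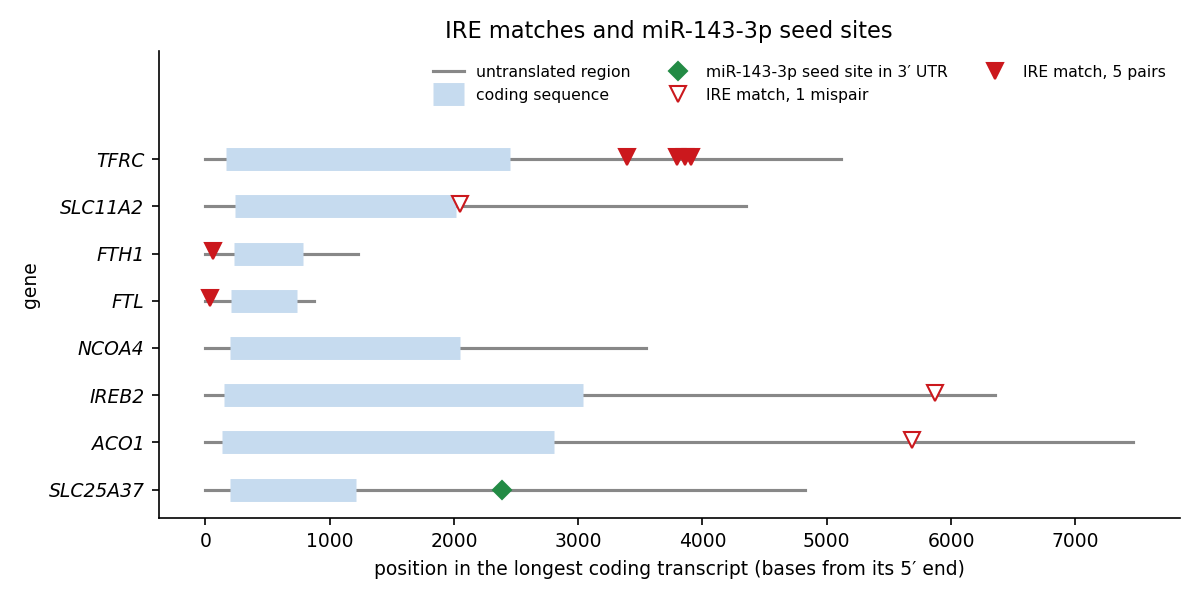
Longest coding transcript of each gene drawn to scale, with untranslated regions as lines and the coding sequence as a bar. Filled triangles are IRE matches with all 5 pairs (1 in FTH1, 1 in FTL, 4 in TFRC), open triangles matches with 1 mispair, and the diamond the miR-143-3p seed site of SLC25A37.

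The seed of miR-143-3p (bases 2 to 8, in capitals) was then compared with the 3′ UTRs, since microRNAs recognise many target mRNAs through their seed. The mature sequence is that of RefSeq (GRCh38.p14).
hsa-miR-143-3p, chr5:149428978-149428998, plus strand: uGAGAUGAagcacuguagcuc
Sites were searched on the sense strand with the letters CATCTCA (7mer-A1) or TCATCTC (7mer-m8), or with both combined in TCATCTCA (8mer). Of the 8 genes only SLC25A37 held such a site in the 3′ UTR of its longest coding transcript. It was a 7mer-m8 that starts at base 1173 of 3608. Of all coding genes, 21.6% held at least 1 such site. Other regions and other kinds of site were not searched.

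TFRC (transferrin receptor 1, chr3:196027183-196082189, minus strand) takes up iron-loaded transferrin and is a hallmark of erythroid cells. It was at 45.8 FPKM in control_IgG and 32.9 in control_AGO, and 70.05 in miR143_IgG against 27.5 in miR143_AGO. Both AGO precipitates thus lay below both mock precipitates, and miR143_IgG was the highest. Its row ranked between 409th and 904th of 17826 rows of 1 protein-coding gene. The transcribed region overlaps AC024937.1 on the other strand, and reads of the 2 cannot be told apart unless strand was used in counting, which is not given in the sources used here.

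SLC11A2 (divalent metal transporter 1, chr12:50979401-51028566, minus strand) moves iron out of the endosome once transferrin has released it. It was at 15.9 FPKM in control_IgG and 13.9 in control_AGO, and 2.17 in miR143_IgG against 14.03 in miR143_AGO. The mock precipitate of miR-143 cells alone was low, and the other values lay close together. The AGO values differed by a log2 ratio of 0.02. As the low value was still 105 times the low edge of its group, it was not at the lowest values listed. The value in control_IgG was 94 times the low edge there, against 1010 and 1120 times in control_AGO and miR143_AGO. The transcribed region overlaps RNU6-87P on the same strand, where counting by strand would not separate their reads.

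The ferritin genes were the most abundant of the set. FTH1 (ferritin heavy chain, chr11:61959718-61967660, minus strand), which carries the ferroxidase centre, was at 359 FPKM in control_IgG and 472 in control_AGO, and 560.02 in miR143_IgG against 602 in miR143_AGO. FTL (ferritin light chain, chr19:48965301-48966878, plus strand), which favours nucleation of the iron core, was at 1315, 1037, 995 and 1843 FPKM for these groups in turn. FTL was therefore higher than FTH1 in every precipitate, and miR143_AGO was the highest group for both. Among coding rows FTL ranked 25th in control_IgG and 10th in control_AGO, and 32nd in miR143_IgG against 3rd in miR143_AGO. FTH1 ranked 77th, 32nd, 59th and 17th in the same order. Together they made up 0.749%, 0.974%, 0.715% and 1.6% of the FPKM of coding rows.

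The ratio of FTL to FTH1 within a group does not depend on the scaling of the library. It was 3.66 in control_IgG and 2.20 in control_AGO, and 1.78 in miR143_IgG against 3.06 in miR143_AGO. The ratio was higher with miR-143 in AGO and lower with it in the mock. The ratio of FTH1 to TFRC was 7.83 and 7.99 in control_IgG and miR143_IgG but 14.3 and 21.9 in control_AGO and miR143_AGO. Relative to the receptor, heavy-chain ferritin was thus higher in both AGO precipitates than in both mocks.

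Both ferritins have many processed copies in the genome, whose reads can be shared with the parent. Of 25 rows named as FTH1 pseudogenes 5 were above 0 in any group, and of 16 rows named as FTL pseudogenes 1 was. Summed, the FTH1 copies reached 0.666% of the FTH1 value in miR143_AGO, 0.544% in control_AGO and 0.144% in miR143_IgG, and were listed at 0 in control_IgG. Adding them to the parents changed no count of differing genes. How reads with several matches were counted is not given in the sources used here. FTH1 also overlaps BEST1 on the other strand.

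NCOA4 (chr10:46005088-46030714, minus strand) is the receptor that delivers ferritin to the lysosome so that its iron is released. It was at 14.01 FPKM in control_IgG and 21.8 in control_AGO, and 32.7 in miR143_IgG against 12.6 in miR143_AGO. The AGO value exceeded the mock in control cells and fell short of it in miR-143 cells.

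IREB2 (chr15:78437431-78501456, plus strand) encodes IRP2, which is degraded when iron is plentiful. It was at 5.85 FPKM in control_IgG and 12.1 in control_AGO, and 22.2 in miR143_IgG against 9.50 in miR143_AGO. The order of the 4 groups was the same as for NCOA4 except at its low end, with miR143_IgG highest and control_AGO next. IREB2 overlaps AC027228.1 on the other strand.

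ACO1 (chr9:32384603-32454769, plus strand) encodes the protein that acts as cytosolic aconitase when it holds an iron-sulfur cluster and as IRP1 when it does not. It was listed at 0 in control_IgG and was at 0.241 FPKM in control_AGO, 0.953 in miR143_IgG and 1.42 in miR143_AGO. ACO1 was the lowest of the 8 genes in every group. IREB2 was above ACO1 in all 4 precipitates. No fold against control_IgG is given, since the value there is listed at 0 in the shallowest group.

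SLC25A37 (mitoferrin 1, on chromosome 8, plus strand) carries iron across the inner mitochondrial membrane and serves heme synthesis in erythroid cells. It was at 33.6 FPKM in control_IgG and 26.4 in control_AGO, and 97.9 in miR143_IgG against 48.8 in miR143_AGO. Both precipitates of miR-143 cells lay above both precipitates of control cells. TFRC was 1.36 and 1.25 times as high as SLC25A37 in control_IgG and control_AGO and 0.715 and 0.564 times as high in miR143_IgG and miR143_AGO.

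**Figure D2:**
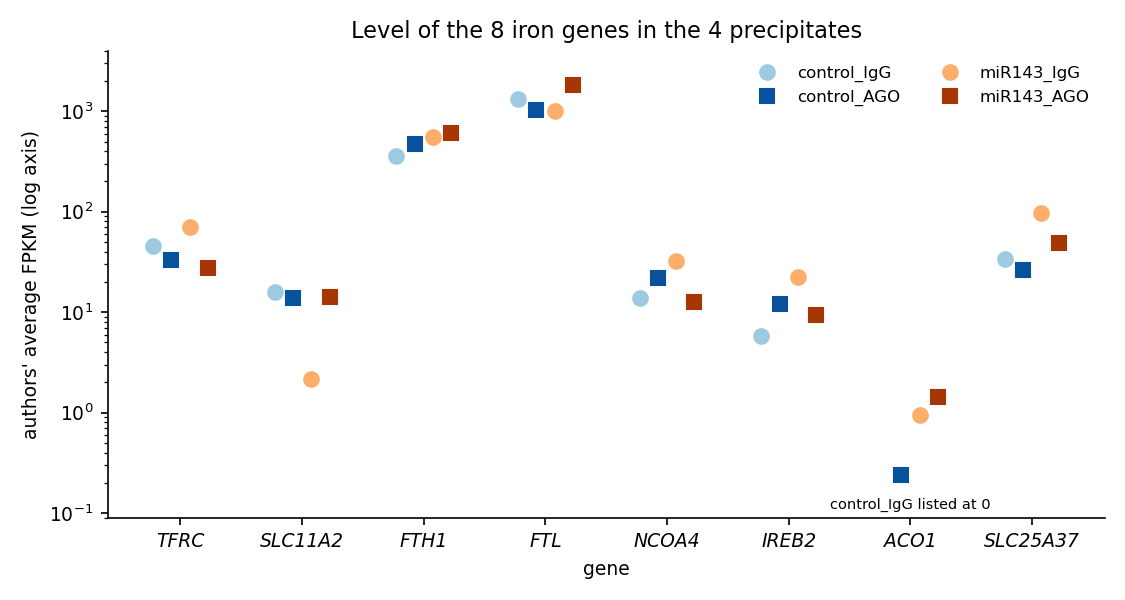
Authors' average FPKM of the 8 genes on a log axis, 1 point a group (circles, mock IgG; squares, AGO; blue, control cells; orange and brown, miR-143 cells) and no error, since 1 average a group was used. FTL and FTH1 lie at the top in every group, ACO1 at the bottom, and SLC11A2 is low in miR143_IgG alone (2.17 FPKM).

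By level the order was FTL, FTH1, then TFRC or SLC25A37, then NCOA4, SLC11A2 and IREB2 in varying order, then ACO1. TFRC stood above SLC25A37 in the control cells and below it in the miR-143 cells. Since no spread is known, it cannot be said which neighbours in this order differ beyond it. The rows most like TFRC over the 4 groups, by Euclidean distance of log2(FPKM + 1), were PEBP1 (distance 0.28), MTPN (0.34) and MRPS7 (0.42). For FTH1 they were HIST1H2AI (0.29), RPL24 (0.55) and GAPDH (0.69).

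Enrichment with AGO2 over the mock in control cells asks which mRNAs are held by AGO2 at the resting level of microRNAs. None of the 7 genes compared differed 2-fold, ACO1 being too low to enter. IREB2 came nearest with a log2 ratio of 0.94, and it passed 2-fold by plain ratio (2.07) and with a pseudocount of 0.1 (log2 ratio 1.04). It was followed by NCOA4 with 0.60 and FTH1 with 0.39. SLC11A2 had −0.19, SLC25A37 −0.34, FTL −0.34 and TFRC −0.47. The median of the 7 was −0.19 and that of all 9919 rows compared was also −0.19. Of all rows, 34.5% were at least 2-fold higher and 36.2% at least 2-fold lower, and 29.3% lay within 2-fold, as all 7 iron genes did. None passed 10-fold, as 4.38% of rows did upward and 4.98% downward.

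The direction of the small differences depended on scaling. When the groups were given the same median, the median of all rows became 0.47 and all 7 genes were above 0, with 3 of them 2-fold higher as were 42.5% of all rows. TFRC was then at 0.16, SLC11A2 at 0.42, FTL at 0.30 and SLC25A37 at 0.28. In control_IgG, IREB2 and NCOA4 rested on 50.5 and 67.6 times the low edge of the group, against 820 times or more in the other groups.

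In miR-143 cells the same comparison gave a wider spread. SLC11A2 was 2-fold higher in AGO than in the mock with a log2 ratio of 2.24, against 26.6% of 10643 rows. TFRC (−1.32), NCOA4 (−1.31) and IREB2 (−1.15) were 2-fold lower, against 33.5% of rows. SLC25A37 had −0.99, just within 2-fold, and by plain ratio it was at 0.498 of its mock, so that with pseudocounts of 0.1 and 0.01 the genes 2-fold lower were 4. FTL had 0.89, ACO1 0.31 and FTH1 0.11. None of the 8 passed 10-fold in either direction (1.6% and 3.67% of rows). The median of the 8 genes was −0.44 and that of all rows −0.22.

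The ratio of SLC11A2 exceeded that of 93.2% of rows, and it was set by the mock, in which the gene was at 2.17 FPKM. Scaling to the same sum of coding rows moved the median of all rows to 0.27, with 25.5% of rows 2-fold lower, and left TFRC, NCOA4 and IREB2 within 2-fold. With the same median, TFRC (−1.03) and NCOA4 (−1.03) stayed 2-fold lower and IREB2 (−0.87) did not, against 28.8% of rows. The lower calls thus depended on the scaling chosen. FTH1, an abundant mRNA, was 1.31 times its mock in control cells and 1.08 times in miR-143 cells by plain ratio.

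**Figure D3:**
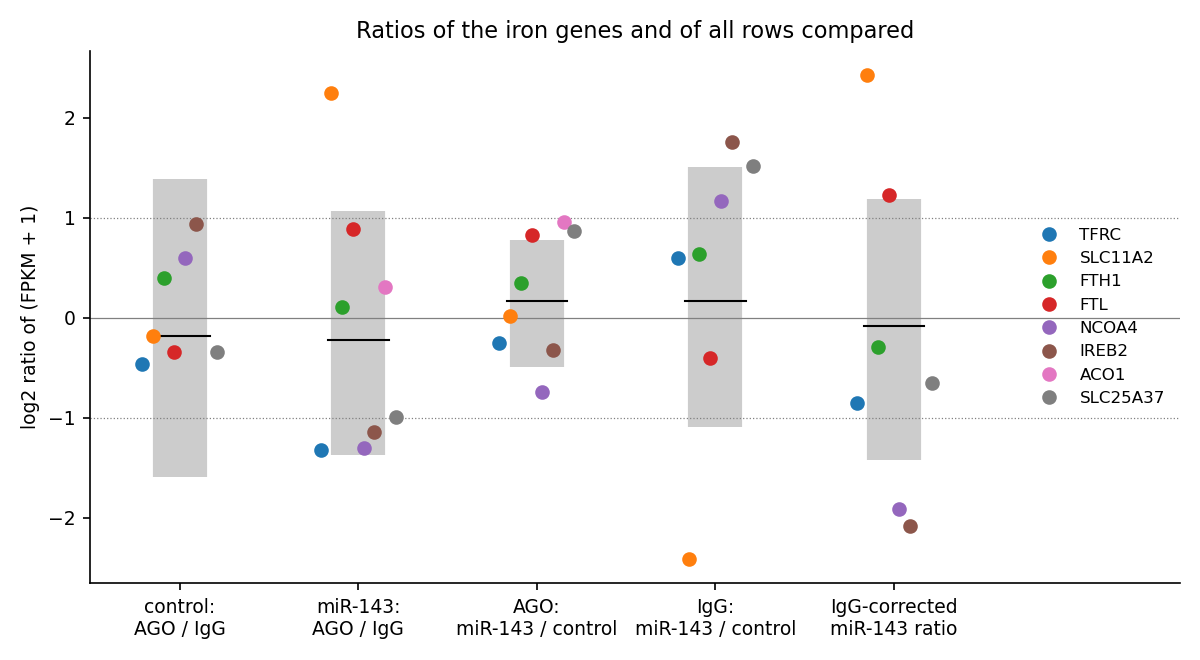
Log2 ratios of the genes (coloured points) in the 5 comparisons, over the middle 50% of all rows compared (grey bars) and their median (black lines); dotted lines mark 2-fold, and ACO1, listed at 0 in control_IgG, is left out where that group enters. All 8 genes lie within 2-fold between the AGO precipitates, where ACO1, SLC25A37, FTL and NCOA4 leave the grey bar. SLC11A2 leaves it in each comparison that miR143_IgG enters. IREB2 and SLC25A37 leave it between the mocks, and IREB2, NCOA4 and FTL in the IgG-corrected ratio.

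The question for which the study made the precipitates, which mRNAs gain AGO2 binding with miR-143, is addressed by the AGO precipitates of both cell populations. All 8 iron genes lay within 2-fold there, as did 68.2% of 9798 rows. ACO1 (log2 ratio 0.96), SLC25A37 (0.86), FTL (0.83) and FTH1 (0.35) were higher with miR-143, SLC11A2 was at 0.02, and TFRC (−0.25), IREB2 (−0.32) and NCOA4 (−0.74) were lower. The median was 0.18 against 0.17 for all rows. None was counted as 2-fold higher (17.7% of rows) or 2-fold lower (14.1%), and none as 10-fold higher (0.286%) or lower (0.745%).

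SLC25A37, the gene with a miR-143-3p seed site, was 1.85 times higher in miR143_AGO by plain ratio. It was also 2.91 times higher in miR143_IgG than in control_IgG, both precipitated without the AGO2 antibody. The part of the seed site in these values was not tested. ACO1 reached 5.88 times by plain ratio, from 0.241 to 1.42 FPKM, and was 2-fold higher with a pseudocount of 0.1 (log2 ratio 2.15). FTL was 1.78 times and FTH1 1.28 times higher by plain ratio.

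Between the mock precipitates, which hold no AGO2 antibody and serve as the background of the comparison above, the iron genes differed more. So did rows in general, with a standard deviation of 1.99 log2 units, against 1.12 between the AGO precipitates. IREB2 (log2 ratio 1.76), SLC25A37 (1.52) and NCOA4 (1.17) were at least 2-fold higher in miR143_IgG, against 36.2% of 10172 rows. SLC11A2 (−2.41) was 2-fold lower, against 26.8% of rows. FTH1 (0.64), TFRC (0.60) and FTL (−0.40) lay within 2-fold, as did 37.0% of rows. The ratios of the 7 genes ran from −2.41 to 1.76, whereas between the AGO precipitates those of the 8 ran from −0.74 to 0.96. None passed 10-fold (5.71% upward, 3.16% downward).

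The IgG-corrected ratio divides the AGO over IgG ratio of miR-143 cells by that of control cells, and carries all 4 groups. SLC11A2 (2.43) and FTL (1.23) were at least 2-fold higher, against 29% of 11914 rows. IREB2 (−2.08) and NCOA4 (−1.91) were at least 2-fold lower, against 33.5% of rows. TFRC had −0.85, SLC25A37 −0.65 and FTH1 −0.29. For ACO1 the ratio is set by the pseudocount and is not given. With the same median FTL was at 0.88, within 2-fold, and TFRC at −1.19, so that 1 gene was higher (24.8% of rows) and 3 were lower (36.5%). For SLC11A2, IREB2 and NCOA4 the mock ratio was larger in size than the AGO ratio and of opposite sign to the corrected value. For FTL the AGO ratio (0.83) was the larger part. None of the 7 passed 10-fold (4.29% upward, 6.05% downward).

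AGO was next compared with the mock for 56 other genes of iron handling in 5 lists, of which 42 entered in control cells and 43 did with miR-143. In control cells 14 were at least 2-fold higher and 13 lower, with a median of −0.27. In miR-143 cells 14 were higher and 9 lower, with a median of 0.11. Between the AGO precipitates 6 of 40 were higher and 4 lower, with a median of 0.30. Of all rows, 34.5% were higher and 36.2% lower in control cells, and 26.6% and 33.5% in miR-143 cells. Between the AGO precipitates these shares were 17.7% and 14.1%. In AGO over IgG of control cells, 2 of 5 genes of the IRE list were 2-fold higher and 0 lower, 3 of 5 of the uptake list higher and 1 lower, and 1 of 7 of the storage and turnover list higher and 3 lower. Of the mitochondrial iron and iron-sulfur list 5 of 20 were higher and 9 lower, and of the export and hormone list 3 of 5 were higher and 0 lower. In miR-143 cells the counts were 2 higher and 0 lower of 5 for the IRE list, 3 and 0 of 5 for uptake, and 0 and 3 of 7 for storage and turnover. They were 7 and 4 of 19 for the mitochondrial list, and 2 and 2 of 7 for export and hormone. Of the 8 erythroid markers, in 6 distinct rows, 2 were higher and 1 lower in control cells, and 5 were higher and 1 lower in miR-143 cells. The 5 include HBG1, HBG2 and HBE1, which share 1 joined row. Of 32 list genes at 10 FPKM or more that entered in both cell populations, 6 were 2-fold higher and 4 were 2-fold lower in both, against 13.3% and 21.7% of 5444 such rows.

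SLC40A1 (ferroportin), the exporter of cellular iron, was at 58.6 FPKM in control_IgG and 120.8 in control_AGO, and 27.4 in miR143_IgG against 213 in miR143_AGO. Both AGO values lay above both mock values, with log2 ratios of 1.03 in control and 2.91 in miR-143 cells. The genes of this paragraph were named because AGO was 2-fold to the same side of the mock in both cell populations. That AGO lay to 1 side of the mock was thus set by the choice. SLC48A1, which moves heme out of the lysosome, holds 1 miR-143-3p seed site (7mer-A1) in its 3′ UTR. It was at 3.85, 64.9, 3.54 and 63.5 FPKM for these groups in turn, so that both mocks and both AGO precipitates nearly matched. HMOX2, the constitutive heme oxygenase, stands in 2 rows. The row with the higher sum was at 27.0, 81.2, 5.61 and 134 FPKM, again with both AGO values on top. SLC39A14, a transporter of iron not bound to transferrin, was at 21.8, 50.2, 6.36 and 33.1 FPKM.

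SLC25A28 (mitoferrin 2), the widely expressed relative of SLC25A37, was listed at 0 in control_IgG and was at 83.3 FPKM in control_AGO, 2.89 in miR143_IgG against 103 in miR143_AGO. SLC25A28, like NUBP1 below, was named because AGO was 2-fold to the same side of its mock in both cell populations. SLC25A37 was in the set from the start, so the contrast of the mitoferrin rows was in part set by that choice. SLC25A37 was below its mock in both AGO precipitates (though above it in control cells under all 3 scalings), and SLC25A28 was above its mock in miR-143 cells by a log2 ratio of 4.74. NUBP1, a scaffold for cytosolic iron-sulfur clusters, was at 0, 76.4, 2.66 and 97.4 FPKM for these groups in turn.

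Lower in both AGO precipitates were BOLA3, GLRX5 and HSPA9 of mitochondrial iron-sulfur cluster assembly and the iron chaperone PCBP1. BOLA3 was at 86.5 FPKM in control_IgG and 7.18 in control_AGO, and 31.2 in miR143_IgG against 6.68 in miR143_AGO. GLRX5 was at 38.8, 4.36, 24.1 and 3.74 FPKM for these groups in turn. HSPA9 was at 45.9, 14.8, 91.6 and 24.3 FPKM and PCBP1 at 19.02, 3.99, 16.4 and 5.08 FPKM. In each of the 4 genes both mock values exceeded both AGO values. These genes too were named for a 2-fold difference in the same direction in both cell populations. That AGO lay to 1 side of the mock was thus set by the choice.

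**Figure D4:**
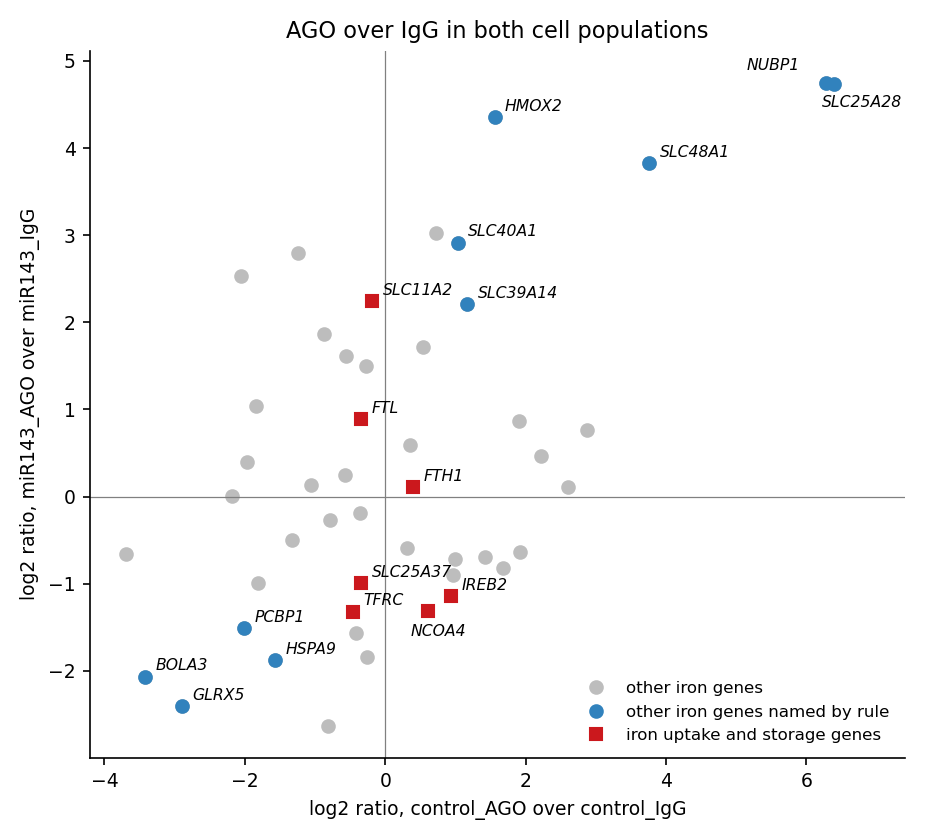
AGO against IgG as log2 ratios, with control cells on the x axis and miR-143 cells on the y axis, 1 point a gene, for genes compared in both; red squares are iron uptake and storage genes, blue circles other iron genes named by rule, and grey circles the remaining ones. The red squares lie within 1 log2 unit of 0 on the x axis, while SLC25A28 and NUBP1, listed at 0 in control_IgG, lie at the upper right, where the x value depends on the pseudocount.

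Genes with an IRE were last compared by the UTR that holds it, a grouping made after the values had been seen. To FTH1 and FTL were added SLC40A1, ALAS2 and EPAS1 for the 5′ UTR, and to TFRC and SLC11A2 CDC14A and CDC42BPA for the 3′ UTR. These elements are known from the literature, and some of the genes were added with their values in view. The search found a full match in SLC40A1, ALAS2 and CDC14A and none in EPAS1 and CDC42BPA. Between the AGO precipitates all 5 genes of the 5′ group were higher with miR-143, with log2 ratios of 0.35 to 1.53 and a median of 0.81. Of the 4 genes of the 3′ group 1 was above 0, with values from −1.84 to 0.02 and a median of −0.26. Of all rows 57.5% were above 0.

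The other genes of the set and the lists with a match in the 3′ UTR that entered this comparison were IREB2 (−0.32), ACO1 (0.96), LYRM4 (0.22), HEPH (0.87) and SLC39A8 (2.61, a joined row), each with 1 mispair as in SLC11A2. Of these 5, 4 were above 0, so that genes with a match in the 3′ UTR overlapped those of the 5′ group. Between the mock precipitates the 5′ group ran from −1.07 to 0.64 and the 3′ group of known elements from −2.41 to 0.65. In the IgG-corrected ratio 4 of 5 and 2 of 4 were above 0. ALAS2, the erythroid enzyme that starts heme synthesis, was at 11.4 FPKM in control_IgG and 8.74 in control_AGO, and 17.7 in miR143_IgG against 15.4 in miR143_AGO. EPAS1, which encodes HIF-2α, was at 1.45, 2.56, 2.13 and 9.25 FPKM, and CDC42BPA, which also holds 3 miR-143-3p seed sites, at 1.49, 6.97, 2.91 and 1.22 FPKM. EPAS1 and CDC42BPA rest on low values, as does CDC14A of the 3′ group at 1.15, 1.75, 0.524 and 1.30 FPKM. No gene group was tested.

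**Figure D5:**
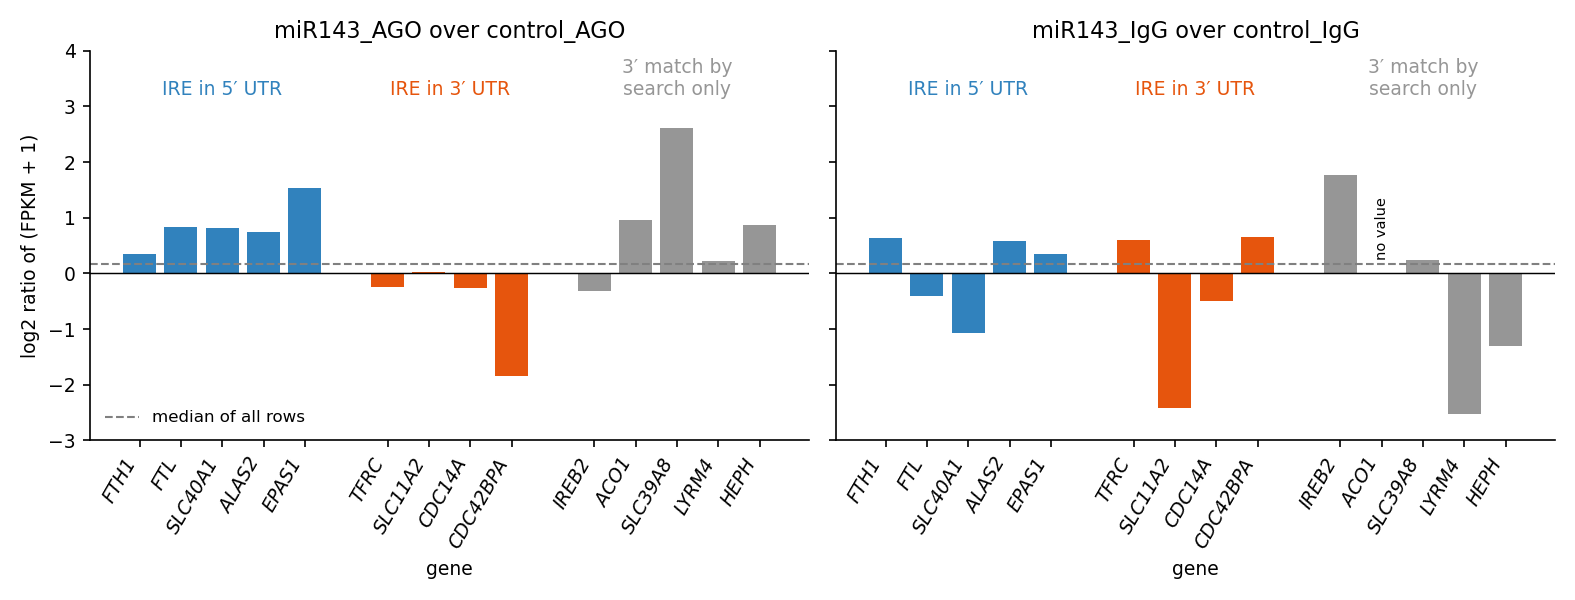
Log2 ratio of miR-143 over control cells in the AGO precipitates (left) and the mock precipitates (right), 1 bar a gene, for genes with a known IRE in the 5′ UTR (blue) or the 3′ UTR (orange) and genes with a 3′ UTR match found by search only (grey). The dashed line is the median of all rows (0.17 in both panels). On the left all blue bars are above 0, the orange ones are at or below 0.02 and 4 of 5 grey ones are above 0, and on the right the colours go either way (ACO1 has no value there, being listed at 0 in control_IgG).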

How the data were processed

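Per the labels, RNA was precipitated from K562 cells with antibody to AGO2 or with IgG, depleted of ribosomal RNA and sequenced in pairs, while the study names a TruSeq kit. Per the submitters' processing notes, the authors processed the reads with TopHat and Cufflinks (versions not given in the sources used here; genome build hg38) and deposited 4 tables of 1 FPKM value per gene row, whose headers call it an average over a group. The annotation is not given in the sources used here.

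Groups were taken from the sample titles. Log2 ratios of FPKM + 1 were computed with Python 3.11.15 (numpy 2.4.6, pandas 2.3.3) over rows of 1 FPKM or more in at least 1 group compared, and the calculation was tested on simulated data. No test was made, since the tables used here hold averages. The design had foreseen limma for values per replicate, and its form for averages was used. FPKM divides by the library total, so abundant RNAs lower all other values. The sum of rows of 1 coding gene was 7.9% of all FPKM in control_IgG and 42.0% in control_AGO, and 8.38% in miR143_IgG against 37.2% in miR143_AGO.

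Relative depth was read from the 10th lowest product of FPKM and transcript length in each group, over genes with 1 transcript, and is called the low edge. It follows the deepest library and gives no fragment counts. A gene's multiple of it used its longest coding transcript. Transcripts came from GENCODE 29 (GRCh38) by symbol. Where a name stood in several rows, the row with the highest sum was taken. ERFE and HJV were found as FAM132B and HFE2.

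The members and the lists were chosen with earlier results of these data known. Named were the 8 genes, and other iron genes that differed 2-fold in the same direction in AGO over IgG of both cell populations and reached 10 FPKM (at most 12), and for TFRC and FTH1 the 3 nearest rows. EPAS1, ALAS2, CDC42BPA, SLC39A8, HEPH, LYRM4 and the genes in the closing observations were picked with their values in view. Alternatives were pseudocounts of 0.1 and 0.01, 3 scalings, other filters, and the summing of copies or of rows with 1 name. Some genes of the lists are not reported here and enter none of the list counts.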

Additional observations from a re-analysis of the deposited data

Results flagged for a closer look

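In 4 genes the average of AGO lay on opposite sides of the mock in the 2 cell populations, and the IgG-corrected log2 ratio gives the size of the difference. It was 2.43 for SLC11A2, 1.23 for FTL, −1.91 for NCOA4 and −2.08 for IREB2. The difference was not tested, since each side is 1 average. Under all 3 scalings SLC11A2 and FTL were above their mock in both populations, with control ratios of 0.42 and 0.30 (same median), 0.25 and 0.13 (same upper quartile) and 0.31 and 0.19 (same coding sum). For SLC11A2, NCOA4 and IREB2 the mock averages of the 2 populations differed by more than the AGO averages did. Rows in general did too, with 37.0% within 2-fold between the mocks and 68.2% between the AGO precipitates. The part of the mock in the result was not tested.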

How the results depend on the processing

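No paired analysis was possible because the tables used here give a single average per group, although the sample titles number the replicates, and leaving out a replicate was not run for the same reason. With no replicate error, a log2 value or a count was taken as moved beyond 1.5 times. The filters and the summing of pseudogenes moved no median, count or single value of the iron genes, nor did leaving out ACO1, chosen after seeing the data, move a median or a count. Including joined rows or summing rows with 1 name could not move them, since each of the 8 genes stands in 1 row of its own, and the other lists were not run under these settings. With a pseudocount of 0.1 or 0.01, 1 gene was 2-fold higher in control_AGO over control_IgG (IREB2) and 1 in miR143_AGO over control_AGO (ACO1), from 0 each. With the same median, the median of the iron genes in control_AGO over control_IgG became 0.42 (from −0.19). Genes 2-fold higher there became 3 with the same median and 2 with the same upper quartile or coding sum, while 42.5%, 40.0% and 41.1% of all rows were. In miR143_AGO over miR143_IgG, 2 genes were 2-fold higher under each of the 3 scalings (from 1), against 31.2% to 34.7% of rows. Genes 2-fold lower there (from 3) were 0 with the same upper quartile or coding sum, against 27.1% and 25.5% of rows. With the same median they were 2 (TFRC and NCOA4), against 28.8% of rows. In miR143_AGO over control_AGO, 1 (ACO1) was 2-fold higher under each scaling (from 0), against 16.9% to 21.2% of rows. In the IgG-corrected ratio 1 was with the same median (from 2), against 24.8% of rows. No ratio past 2-fold changed sign under any alternative. The low values of ACO1 and the low edge of control_IgG limit the ratios that use them.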

Other observations

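CP and TMPRSS6, genes of systemic iron control that act mainly in the liver, were above 0 in the mock of miR-143 cells alone. CP, the plasma ferroxidase ceruloplasmin, was at 22.0 FPKM in miR143_IgG and listed at 0 in the other groups. TMPRSS6, the protease that lowers hepcidin, was at 6.64 FPKM there and likewise listed at 0 elsewhere. HAMP (hepcidin), BMP6 and HMOX1 were listed at 0 in all 4 groups. ERFE, the hormone by which erythroblasts signal to the liver, was at 1.00 FPKM in control_IgG and 4.35 in control_AGO, and 25.1 in miR143_IgG against 15.2 in miR143_AGO, higher in both precipitates of miR-143 cells. TFR2, the second transferrin receptor, was at 17.9, 86.8, 26.1 and 36.5 FPKM for these groups in turn and highest in control_AGO.

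Of 18 genes of the mitochondrial iron and iron-sulfur list, 8 were 2-fold lower in miR143_IgG than in control_IgG and 5 were 2-fold higher, against 26.8% and 36.2% of all rows. Of the lower ones, 3 are given here, picked by their values. FDXR was at 63.2 FPKM in control_IgG and 26.1 in control_AGO, and 4.84 in miR143_IgG against 39.6 in miR143_AGO. MMS19 was at 58.8, 15.7, 7.20 and 15.8 FPKM, and LYRM4 at 49.9, 26.9, 7.88 and 31.5 FPKM. In these 3 genes the AGO averages of the 2 populations were nearer to each other than the mock averages were. A large mock difference was set by the way they were picked. Rows in general were nearer too, with 68.2% within 2-fold between the AGO precipitates and 37.0% between the mocks. ISCA2 (log2 ratio 3.22) and IBA57 (3.51), of the same assembly pathway, were higher in miR143_IgG than in control_IgG.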
